A study of Mus musculus with 12 samples.

Results

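Most of the 34 genes described here serve to take fatty acids from the capillary into the heart muscle cell and burn them in its mitochondria. Others act beside or against that route, among them Acacb, the thioesterase genes, Ucp3, Plin5 and the peroxisomal Ehhadh. The 34 genes were chosen by name, with earlier results of these data known. Their list follows the route from uptake through activation and the carnitine shuttle to beta-oxidation and electron transfer. All 34 were among the 22584 genes of the deposited count table. The study isolated cardiomyocytes from hearts of wild-type (WT) C57BL6 mice and sequenced their polyadenylated RNA, with 3 libraries in each of 4 groups. Sham saline and sham JV001 mice had a sham operation for 12 weeks and an injection of saline or of JV001. CKD saline and CKD JV001 mice, named for chronic kidney disease, were uninephrectomized (1 kidney removed) and received angiotensin II (AngII) with a diet high in salt, with an injection of saline or of JV001. The labels give 12 weeks for CKD JV001 and no duration for CKD saline, and they give no age, sex, dose or composition of JV001, which the series' title connects only in general terms with telomere recapping by gene therapy. Nothing in the labels says that the 3 libraries of a group came from separate mice, so the p-values below measure the spread between these libraries, which may be technical.

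The adult heart draws most of its ATP from long-chain fatty acids. These are released from lipoproteins by lipoprotein lipase, cross the membrane with the help of CD36 and FATP1, travel bound to FABP3, are joined to coenzyme A by ACSL1, and enter the mitochondrion as acylcarnitines through CPT1, the carnitine-acylcarnitine carrier and CPT2. Each turn of the beta-oxidation spiral then removes an acetyl unit, and its electrons pass through ETF and ETF dehydrogenase to the respiratory chain; the nuclear receptors PPARα and ERRα and the coactivator PGC-1α are known activators of these genes.

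Promoter sequences are shown for 4 genes. The paralogs Acot1 and Acot2 can so be set beside each other. Cpt1a, which varied apart from most of the 34 genes, and Acadm, which varied with them, were taken from the windows that hold the motif marked below. RefSeq windows of 300 bases on build GRCm38.p6, from 250 before to 50 after the transcription start, were matched by symbol for 28 of the 34 genes. Capitals mark AGGTCA or its reverse complement, the core motif bound by PPARα and ERRα.
Acot1, chr12:84009252-84009551, + strand: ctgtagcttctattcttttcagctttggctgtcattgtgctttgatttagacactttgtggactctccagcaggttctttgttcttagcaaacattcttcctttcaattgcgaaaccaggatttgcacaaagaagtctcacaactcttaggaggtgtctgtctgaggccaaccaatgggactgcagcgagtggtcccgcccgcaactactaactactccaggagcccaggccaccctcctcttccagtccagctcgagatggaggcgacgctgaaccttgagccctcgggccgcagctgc
Acot2, chr12:83987611-83987910, + strand: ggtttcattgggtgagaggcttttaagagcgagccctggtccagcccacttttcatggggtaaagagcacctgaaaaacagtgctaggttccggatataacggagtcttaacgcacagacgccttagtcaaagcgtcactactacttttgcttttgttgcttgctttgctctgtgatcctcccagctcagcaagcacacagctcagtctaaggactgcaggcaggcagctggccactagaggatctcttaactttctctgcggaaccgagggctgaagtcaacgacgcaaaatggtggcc
Cpt1a, chr19:3323051-3323350, + strand: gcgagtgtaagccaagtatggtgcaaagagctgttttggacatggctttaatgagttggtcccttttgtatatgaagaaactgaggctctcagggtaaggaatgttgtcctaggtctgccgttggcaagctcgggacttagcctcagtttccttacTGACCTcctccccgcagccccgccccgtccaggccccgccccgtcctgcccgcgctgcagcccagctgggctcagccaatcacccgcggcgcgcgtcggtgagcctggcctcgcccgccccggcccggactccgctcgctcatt
Acadm, chr3:153944594-153944893, - strand: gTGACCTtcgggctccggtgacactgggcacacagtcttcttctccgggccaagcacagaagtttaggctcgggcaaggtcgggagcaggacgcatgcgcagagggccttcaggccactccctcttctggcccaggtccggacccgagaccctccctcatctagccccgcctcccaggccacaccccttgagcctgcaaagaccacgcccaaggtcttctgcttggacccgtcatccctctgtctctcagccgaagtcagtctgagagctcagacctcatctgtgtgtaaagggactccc
Searched on both strands, AGGTCA occurred in 8 of the 28 windows (28.6%), those of Cd36, Plin5, Ucp3, Cpt1a, Acacb, Acadvl, Acadm and Echs1, and in 18.1% of the windows of all 27025 genes. The longer forms that contain it, TNAAGGTCA of ERRα and the direct repeat DR1 of PPARα with its partner RXR, occurred in 0 of the 28 windows, against 1.43% and 0.0481% of all genes. The match began at position -94 in Cpt1a and at position -249 in Acadm, and the Acot1 and Acot2 windows held none. A match is a description of letters in this window and not a binding site.

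The libraries held 25233561 to 37000337 counted reads, of which 18.8% to 38.5% came from the mitochondrial genome. That share was highest in CKD saline library 3 (38.5%) and CKD JV001 library 3 (37.7%), the libraries in which most of the 34 genes were lowest. Sham saline library 1 also stood apart: its mitochondrial share was 34.7%, against 18.8% and 19.5% in the other 2 of its group, 31 of the 34 genes had their lowest sham saline level in it, and its endothelial markers stood at a mean log2 CPM of 6.78, against 5.03 and 5.36. Its chi-square per gene was 256 and 226 against those 2, which differed by 28.3 from each other. The part of the mitochondrial share in the results was not tested. Ventricular markers (Myh6, Myl2, Tnnt2 and 12 others) were abundant in every library, as the cell type label says, yet the level of the 15 together was lowest in CKD JV001 library 3 and next lowest in CKD saline library 3: their summed level was 103070 to 139733 CPM (read counts scaled to a common library size) in sham mice given saline, 111124 to 121728 in those given JV001, 72439 to 127846 in CKD mice given saline, and 35445 to 80264 in CKD mice given JV001. Markers of fibroblasts (12 genes, among them Col1a1 and Dcn) were higher in those libraries, with summed levels of 348 to 1252, 664 to 1385, 678 to 2610 and 3062 to 4034 CPM in the same order, and those of macrophages (11 genes) with 39.6 to 192, 84.4 to 278, 105 to 528 and 541 to 1022 CPM. Fibroblast markers stood at a mean log2 CPM of 6.32 in CKD saline library 3 and of 4.42 and 4.40 in the other 2 CKD saline libraries. By chi-square per gene, CKD saline libraries 1 and 2 were the most alike of all same-group pairs (8.31, against 23.3 to 356 in the other pairs). By Spearman correlation CKD JV001 libraries 1 and 2 were slightly more alike (0.993, against 0.990). CKD saline libraries 1 and 2 differed by more than sampling noise and were kept as 2 libraries. Less RNA of a gene per cardiomyocyte and fewer cardiomyocytes among the cells of a library cannot be told apart in these bulk data, and the part of the cell mix in the results below was not tested.

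Levels between genes were compared in FPKM, the authors' length-scaled values, in which the 34 genes spanned from Fabp3 to Cpt1b. Fabp3, the cytosolic fatty acid carrier of heart muscle, averaged 4411 FPKM over the 12 libraries and ranked 11 among all genes, and Lpl averaged 983 FPKM. Etfb, Hadha, Acaa2, Acadm, Acadvl and Acadl followed at 587, 529, 517, 479, 416 and 398 FPKM. In the GENCODE M21 annotation Gm45233 and Mir7051 overlap 58.2% of the exonic bases of Etfb on the same strand. Dvl2 overlaps 42.9% of those of Acadvl on the opposite strand. How shared reads were counted is not given, and the part of these overlaps in the values of both genes was not tested. At the low end stood Cpt1a with 9.89 FPKM, the peroxisomal bifunctional enzyme gene Ehhadh with 4.44, Acot1 with 3.93 and Cpt1b with 0.370. The order depends on the gene lengths the authors used: Etfa, at 52.1 FPKM, was divided by a length of 9685 bases, against 1835 exonic bases in the GENCODE M21 annotation, so that its place below its partner Etfb is not comparable.

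**Figure D1:**
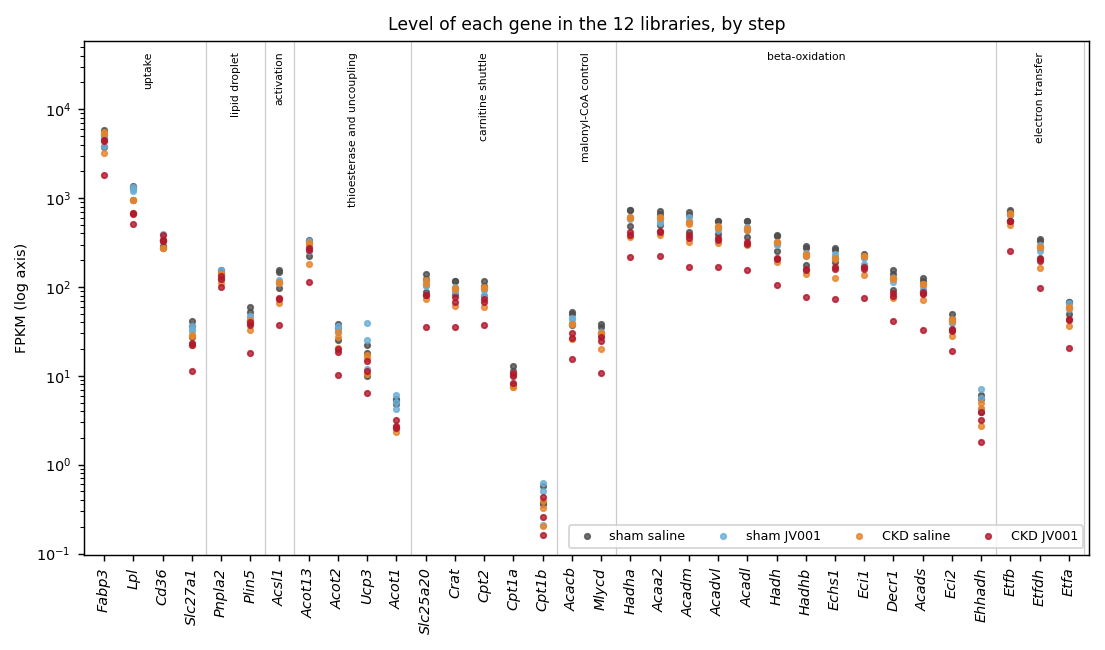
FPKM (log axis) of the 34 genes in the 12 libraries, grouped by step; each point is 1 library, coloured by group. The lowest point of most genes is a CKD JV001 library, and Fabp3 (mean 4411 FPKM) and Cpt1b (0.370 FPKM) mark the ends of the scale.

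Across the 5 comparisons of the factorial design, fitted without regard to the library numbers, none of the 34 genes passed an adjusted p of 0.05 (edgeR quasi-likelihood test, Benjamini-Hochberg over 15004 genes). The share of all genes called was 0.02% in CKD JV001 against sham JV001 and 0% in each of the other 4 comparisons. In CKD JV001 against CKD saline the genes had a median log2 fold change of -0.68, against 0.02 for all genes tested; 32 of 34 were negative (48.6% of all genes), 21 were lower at an unadjusted p under 0.05 (8.75% of all genes), and the smallest adjusted p was 0.276. In CKD JV001 against sham JV001 the median was -0.81, all 34 were negative (48.9% of all genes), 25 were lower at an unadjusted p under 0.05 (12.7% of all genes), and in 30 genes the groups did not overlap, all lower in CKD JV001 (20.1% of all genes). In CKD saline against sham saline the median was -0.19, with 1 gene at an unadjusted p under 0.05 (4.95% of all genes), and in sham JV001 against sham saline it was -0.08 with none (2.84%). Without sham saline library 1 these medians were -0.33 and -0.21, still with 0 calls at an adjusted p of 0.05. The interaction, which asks whether the JV001 difference was the same in CKD and sham mice, had a median of -0.61 with 2 genes, Lpl and Acot2, at an unadjusted p under 0.05 (3.78% of all genes) and a smallest adjusted p of 0.840. Other tools called more: DESeq2 called 1 gene, Acot1, in CKD saline against sham saline (0.364% of all genes), 15 in CKD JV001 against sham JV001 (15.1%) and 0 in the other 3 comparisons. Limma voom with quality weights per library called 29 in CKD JV001 against CKD saline (44.9% of all genes), 24 in CKD JV001 against sham JV001 (29.6%) and 0 in the other 3. The comparisons share groups with each other and are not independent.

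The number of calls in CKD JV001 against CKD saline turned on the library numbers and on single libraries. Same-numbered libraries of both CKD groups deviated together, but the labels do not pair them. Over all groups, 18 of 36 differently numbered pairs of libraries also passed the correlation limit of 0.1. The correlations thus do not show a pairing by number. The number was used as a block within the CKD groups after seeing the data. With it 27 of the 34 genes were lower at an adjusted p under 0.05 by edgeR's quasi-likelihood test, against 12.8% of all genes. Their median was -0.72 with the block and -0.68 without it. The 7 genes not called were Cd36, Cpt1a, Cpt1b, Acot1, Ucp3, Pnpla2 and Ehhadh. A fit of the 6 CKD libraries alone, which is not independent of the first, also called 27, of which 26 were shared. Ucp3 took the place of Plin5. The share of all genes called is not given here for this fit or for the blocked fits with libraries left out. Their counts alone do not set the 34 genes apart from all genes. The blocked calls fell to 0 without the CKD libraries numbered 1 or those numbered 2, where the smallest adjusted p was 0.0685 and 0.0678, and to 22 without those numbered 3. They also fell to 0 with the mean of the fibroblast, endothelial and macrophage markers as a covariate (median -0.60, smallest adjusted p 0.326). In the blocked fit of 12 libraries without that covariate 15 of 15 ventricular markers were lower, and 11 of 12 fibroblast and 8 of 11 macrophage markers were higher. So were 4 of 9 smooth muscle and pericyte and 1 of 8 neutrophil markers, but 0 of 10 endothelial markers. For erythroid, epicardial, adipocyte and lymphoid markers it was 0 of 6, 0 of 6, 0 of 4 and 0 of 9. The share of all genes called higher is not given here. In the fit with no block, leaving out CKD saline library 3, in which 32 of the 34 genes had their lowest CKD saline level, gave 20 genes that were lower at an adjusted p under 0.05 by edgeR's quasi-likelihood test, and 21.3% of all genes tested were called in either direction. Acsl1 then had a log2 fold change of -1.10, Hadha of -1.05, Acadm of -1.05 and Lpl of -0.85, while Cd36 and Cpt1a had 0.12 and 0.13 with adjusted p of 0.619 and 0.590. The same omission gave 11 lower genes in CKD JV001 against sham JV001 (10.4% of all genes called in either direction). CKD JV001 library 3 was the lowest of all 12 libraries in 32 of the 34 genes, all but Cd36 and Acot1. With both libraries numbered 3 left out, 24 genes were lower in CKD JV001 than in CKD saline (19.9% of all genes called in either direction). CKD JV001 libraries 1 and 2 lay below CKD saline libraries 1 and 2 in 30 of the 34. The share of all genes with that pattern was not computed, so this count does not set the 34 genes apart.

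**Figure D2:**
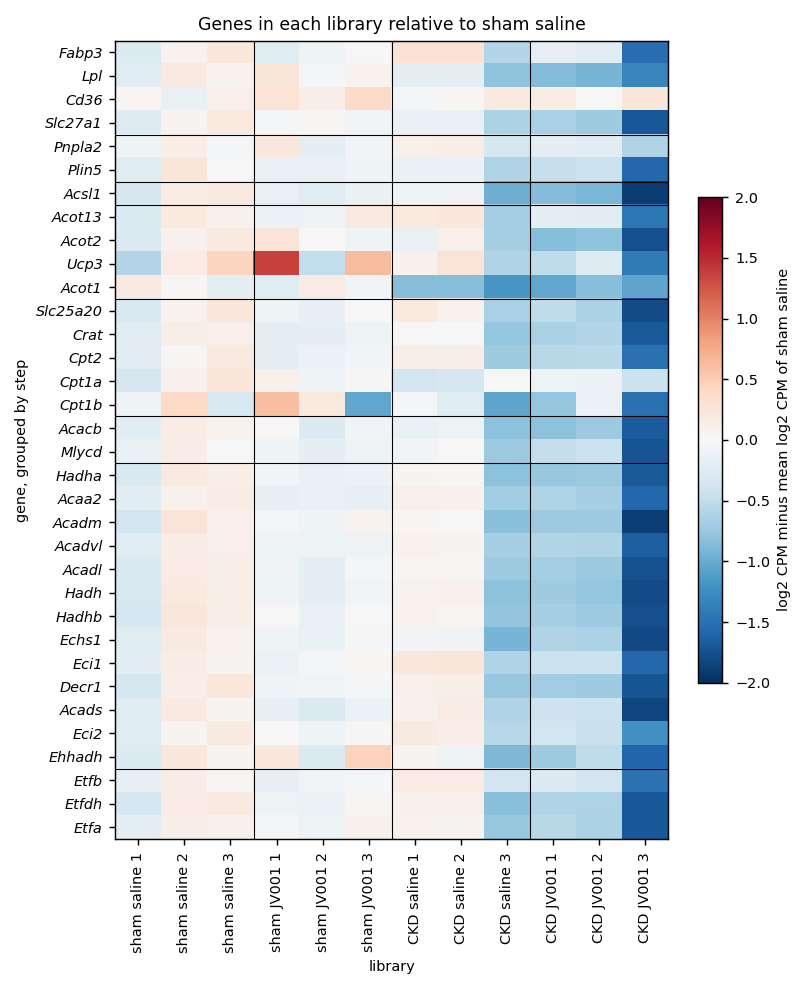
Log2 CPM of each gene (rows, grouped by step) in each library (columns), minus its mean log2 CPM in the 3 sham saline libraries; red is higher and blue lower. CKD saline library 3 and the 3 CKD JV001 libraries are blue over nearly all rows, and the rows of Cd36, Cpt1a and Acot1 stand apart.

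Among the uptake genes, lipoprotein lipase had its lowest levels in CKD JV001, and CD36 kept a level within its sham range there. Lpl, whose enzyme frees fatty acids from circulating triglycerides, stood at 4053, 5424 and 5009 CPM in sham mice given saline and 5677, 4656 and 5045 in those given JV001. Lpl in CKD mice was at 4184, 4219 and 2736 CPM after saline and 2618, 2508 and 1916 after JV001. All 3 CKD JV001 libraries lay below every other library, and CKD saline library 3 was the next. The log2 fold change of CKD JV001 was -0.66 ± 0.24 (SE) against CKD saline and -1.13 ± 0.24 against sham JV001. Their adjusted p were 0.276 and 0.0826 (edgeR). With the CKD block, chosen after seeing the data and not given by the labels, the first adjusted p was 0.0159 (edgeR). Cd36, the membrane fatty acid translocase, was at 1248, 1095 and 1291 CPM in sham mice given saline and 1455, 1329 and 1580 in those given JV001. Cd36 in CKD mice was at 1188, 1247 and 1390 CPM after saline and 1340, 1212 and 1435 after JV001. Its 3 sham JV001 libraries all exceeded the 3 sham saline ones, the only gene of the 34 without overlap there (5.69% of all genes, higher), and each CKD group overlapped both sham groups. The difference was 0.26 ± 0.16 on the log2 scale, with an adjusted p of 0.9997. Cd36 is also a gene of endothelial cells and macrophages. In the same comparison 10 of 10 endothelial markers and 11 of 11 macrophage markers had a positive log2 fold change, with medians of 0.42 and 0.84, and their part in its level was not tested.

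Fabp3 stood at 2722, 3429 and 3793 CPM in sham mice given saline and 2773, 3107 and 3264 in those given JV001. Fabp3 in CKD mice was at 4032, 4007 and 2180 CPM after saline and 2928, 2819 and 1142 after JV001. The groups overlapped in every comparison, and the 2 libraries numbered 3 were the lowest of the 12. CKD JV001 averaged 2296 ± 1001 CPM (SD, n = 3) and CKD saline 3407 ± 1062, a log2 fold change of -0.57 ± 0.35 (SE). Slc27a1, which encodes the transporter FATP1, ranged from 50.4 to 188 CPM, and its CKD JV001 libraries did not overlap those of CKD saline; Lpl, Slc27a1 and Acot2 were the 3 genes of the 34 with that pattern (6.04% of all genes, lower).

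Both lipid droplet genes had log2 fold changes nearer to 0 than any of the 13 beta-oxidation genes in CKD JV001 against CKD saline. Pnpla2, the gene of the triglyceride lipase ATGL, was at 348, 405 and 359 CPM in sham mice given saline and 430, 325 and 355 in those given JV001. Pnpla2 in CKD mice was at 396, 403 and 291 CPM after saline and 321, 315 and 244 after JV001. Plin5, which encodes the perilipin that tethers droplets to mitochondria, was at 87.6, 124 and 104, then 93.3, 93.5 and 98.3, then 95.1, 94.9 and 68.3, and last 75.7, 77.6 and 35.04 CPM in the same order of groups. In both genes CKD JV001 lay below sham JV001 without overlap and overlapped CKD saline, with log2 fold changes against CKD saline of -0.31 ± 0.18 for Pnpla2 and -0.46 ± 0.27 for Plin5 (SE).

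Activation, represented by Acsl1, the main long-chain acyl-CoA synthetase of the heart, had one of the larger differences. Its levels were 727, 1014 and 1054 CPM in sham mice given saline and 833, 779 and 843 in those given JV001. CKD libraries held 868, 874 and 466 CPM of Acsl1 after saline and 505, 486 and 245 after JV001. CKD JV001 libraries 1 and 2 lay above CKD saline library 3 and below the other 2. The log2 fold change against CKD saline was -0.84 ± 0.31 (SE), with an adjusted p of 0.276 (edgeR). It was 0.0125 by edgeR with the CKD block, which was chosen after seeing the data and is not given by the labels.

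**Figure D3:**
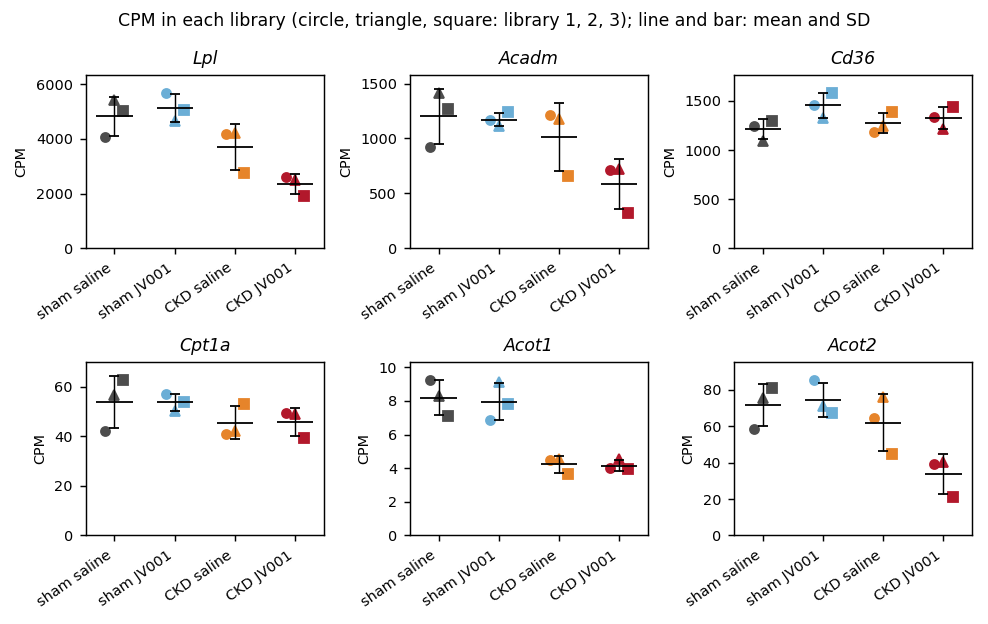
CPM of 6 genes in each library by group; circles, triangles and squares are libraries 1, 2 and 3, and the line and bar give the mean and SD (n = 3). Acot1 separates the 6 CKD from the 6 sham libraries, Lpl is lowest in CKD JV001, and Cd36 and Cpt1a show neither pattern.

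Acot1, a cytosolic thioesterase that splits acyl-CoA back into fatty acid and coenzyme A, was lower in both CKD groups, whose libraries overlapped each other. It stood at 9.22, 8.27 and 7.13 CPM in sham mice given saline, 6.90, 9.11 and 7.85 in those given JV001, 4.52, 4.52 and 3.65 in CKD mice given saline, and 3.99, 4.54 and 3.93 in CKD mice given JV001. Every CKD library was below every sham library. Averaged over both injections, a comparison added after the data had been seen, the log2 fold change of CKD against sham was -0.95 ± 0.14 (SE), with an adjusted p of 0.0305 by edgeR's quasi-likelihood test; no other gene of the 34 passed (0.473% of all genes), and no other separated the 6 CKD from the 6 sham libraries (1.51% of all genes, lower). Against sham saline alone CKD saline had -0.95 ± 0.20 (adjusted p = 0.617), and CKD JV001 differed from CKD saline by -0.03 ± 0.20.

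The Acot1 call depended on single libraries. The adjusted p was between 0.0319 and 0.0926 with 1 library left out in turn, and passed 0.05 only without CKD saline library 3 or without CKD JV001 library 3. Acot1 rested on 92 to 325 reads a library and shares 94.3% of 1330 aligned transcript positions with Acot2, including an identical stretch of 273 bases, so reads may have been assigned to the wrong copy or dropped, and both values are uncertain. Its reads made up 8.07% to 13.6% of the reads of both genes in sham mice given saline, 7.49% to 11.4% in those given JV001, 5.61% to 7.50% in CKD mice given saline, and 9.17% to 15.7% in CKD mice given JV001.

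Acot2, the mitochondrial paralog, was lowest in CKD JV001. It was at 58.6, 75.4 and 81.2 CPM in sham mice given saline and 85.2, 71.0 and 67.4 in those given JV001. Acot2 in CKD mice was at 64.4, 76.0 and 45.0 CPM after saline and 39.5, 40.6 and 21.0 after JV001, where all 3 libraries were below every other library. The log2 fold change against CKD saline was -0.87 ± 0.27 and against sham JV001 -1.14 ± 0.27, and the interaction was -0.93 ± 0.37 (SE). Their adjusted p were 0.276, 0.0885 and 0.840 (edgeR). With the CKD block, chosen after seeing the data and not given by the labels, the first adjusted p was 0.0125 (edgeR). Acot13, a further mitochondrial thioesterase, was at 164, 228 and 212 CPM in sham mice given saline and 184, 186 and 226 in those given JV001. Acot13 in CKD mice was at 229, 233 and 125 CPM after saline and 176, 171 and 73.1 after JV001. CKD saline libraries 1 and 2 were just above its sham range, and both CKD libraries numbered 3 were below it. Ucp3, the uncoupling protein gene of muscle mitochondria, ranged from 28.0 to 101 CPM within sham JV001.

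In the carnitine shuttle the carrier and Cpt2 had their lowest mean levels in CKD JV001, and Cpt1a had the same mean level in both CKD groups within its spread. Slc25a20, the carnitine-acylcarnitine carrier, was at 162, 210 and 232 CPM in sham mice given saline and 188, 178 and 201 in those given JV001. Slc25a20 in CKD mice was at 228, 210 and 127 CPM after saline and 140, 128 and 57.9 after JV001. Cpt2, which rebuilds acyl-CoA inside the mitochondrion, was at 198, 234 and 260, then 204, 212 and 222, then 252, 252 and 141, and last 155, 157 and 81.4 CPM in the same order. CKD saline libraries 1 and 2 were within the sham range in both genes, and the log2 fold changes of CKD JV001 against CKD saline were -0.79 ± 0.31 and -0.71 ± 0.28 (SE). Crat, the carnitine acetyltransferase that exports acetyl groups, had -0.68 ± 0.29.

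Cpt1a, the CPT1 isoform best known from liver, stood at 42.2, 56.6 and 62.5 CPM in sham mice given saline and 57.1, 50.2 and 53.7 in those given JV001. Cpt1a in CKD mice was at 41.1, 42.0 and 53.1 CPM after saline and 49.4, 49.0 and 39.4 after JV001. The groups overlapped except for CKD JV001 against sham JV001, and its log2 fold change against CKD saline was 0.02 ± 0.17 (SE). CKD saline library 3, low in most other genes, held the highest Cpt1a of its group. Cpt1a minus Cpt2 in log2 CPM ranged from -2.62 to -1.05 over the 12 libraries, whereas Hadha minus Hadhb ranged from 0.18 to 0.37.

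Cpt1b, the muscle isoform of CPT1, was counted at only 1.16, 1.64 and 1.01 CPM in sham mice given saline and 1.89, 1.43 and 0.606 in those given JV001. Cpt1b in CKD mice was at 1.22, 1.06 and 0.596 CPM after saline and 0.728, 1.14 and 0.440 after JV001, or 15 to 62 reads a library. In GENCODE M21 a read-through gene, Gm44502, covers 81.4% of the exonic bases of Cpt1b and 50.7% of those of its neighbour Chkb, which had 0 to 1 reads a library. How the authors counted reads that fit several genes is not given in the sources used here, so these values were not read as the level of the isoform.

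Both genes of malonyl-CoA control, the brake on CPT1, were negative in the 4 pairwise comparisons. Acacb, the acetyl-CoA carboxylase that makes malonyl-CoA, was at 375, 479 and 453 CPM in sham mice given saline and 434, 358 and 419 in those given JV001. Acacb in CKD mice was at 393, 404 and 246 CPM after saline and 244, 261 and 137 after JV001. The 3 CKD JV001 libraries and CKD saline library 3 were the 4 lowest of the 12. Mlycd, the decarboxylase that removes malonyl-CoA, had a log2 fold change of -0.54 ± 0.30 against CKD saline, beside -0.70 ± 0.26 for Acacb (SE), so that the maker and the remover of the inhibitor had differences of the same sign.

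The 13 beta-oxidation genes lay close together. All 13 had a negative log2 fold change in CKD JV001 against CKD saline, from -0.85 for Hadh to -0.59 for Eci2 with a median of -0.76, and 10 were lower at an unadjusted p under 0.05 (8.75% of all genes). Hadha, the alpha subunit of the trifunctional protein, was at 1406, 1981 and 1897 CPM in sham mice given saline, 1682, 1596 and 1607 in those given JV001, 1806, 1776 and 991 in CKD mice given saline, and 1033, 1040 and 544 in CKD mice given JV001. Decr1, the dienoyl-CoA reductase needed for polyunsaturated fatty acids, was at 293, 412 and 437, then 358, 361 and 371, then 402, 406 and 222, and last 232, 230 and 114 CPM. In both genes CKD saline libraries 1 and 2 lay within the sham range, CKD saline library 3 lay just below CKD JV001 libraries 1 and 2, and CKD JV001 library 3 was far below all. The log2 fold changes against CKD saline were -0.81 ± 0.30 for Hadha and -0.84 ± 0.30 for Decr1 (SE), with an adjusted p of 0.276 for both (edgeR). It was 0.0125 for both by edgeR with the CKD block, which was chosen after seeing the data and is not given by the labels. Against sham JV001 all 13 were lower in CKD JV001 without overlap (20.1% of all genes), from -1.03 for Ehhadh to -0.57 for Acads, and Acadvl, Acadl and Acads, the dehydrogenases for very long, long and short chains, had -0.77, -0.88 and -0.57. The differences between dehydrogenases were not tested.

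The electron transfer genes had differences close in size to those of the spiral they serve. Etfb, the beta subunit of the electron transfer flavoprotein, was at 527, 657 and 602 CPM in sham mice given saline and 532, 569 and 577 in those given JV001. Etfb in CKD mice was at 664, 664 and 456 CPM after saline and 491, 454 and 213 after JV001. Etfa, the alpha subunit, was at 518, 643 and 627, then 575, 550 and 629, then 620, 615 and 350, and last 402, 384 and 184 CPM. Their log2 fold changes against CKD saline were -0.62 ± 0.28 and -0.71 ± 0.30, and Etfdh, which passes the electrons to ubiquinone, had -0.73 ± 0.32 (SE).

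The mean level of the 34 genes and that of the ventricular markers varied in parallel from library to library. The mean log2 CPM of the 34 genes ranged from 6.65 in CKD JV001 library 3 to 8.28 in sham saline library 2. That of the 15 markers ranged from 10.7 to 12.7 in the same libraries, while the difference between both means stayed between -4.48 and -4.10. Subtracting the marker mean reduced the SD over the 12 libraries in 31 of the 34 genes and brought its median from 0.53 to 0.11. Acadl, Etfa and Etfdh then varied least, with SDs of 0.06 each. Cd36 (0.63), Cpt1a (0.51) and Acot1 (0.50) varied most, followed by Ucp3 (0.47), Cpt1b (0.46), Pnpla2 (0.37) and Lpl (0.25). Before the subtraction Cd36, Cpt1a and Pnpla2 varied least of the 34 genes, with SDs of 0.145, 0.214 and 0.232. They varied less than the marker mean, whose SD was 0.561, and the subtraction raised their SDs. Pnpla2 was still lowest in CKD JV001 library 3 (244 CPM) and next lowest in CKD saline library 3 (291 CPM), as the markers were. The points are libraries that share depth and scaling, and no test was made of this relation.

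**Figure D4:**
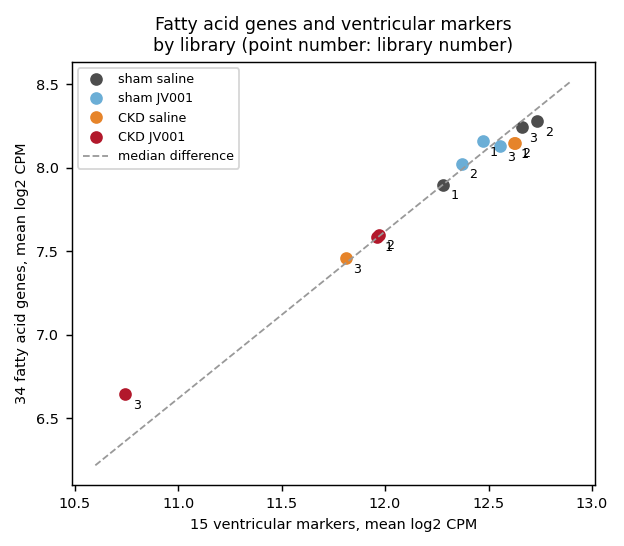
Mean log2 CPM of the 34 fatty acid genes (vertical) against that of the 15 ventricular markers (horizontal), 1 point for each of the 12 libraries, numbered by library within its group; the dashed line has a slope of 1 and the median difference between both axes. The points lie along the line from 6.65 to 8.28, with CKD JV001 library 3 at the lower end and above the line.

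Scaled to the ventricular markers in place of all genes, which sets their level equal in all libraries and moves the median of all genes in CKD JV001 against CKD saline to 0.85, the 34 genes had a median log2 fold change of 0.08 in that comparison and 0 calls (edgeR). The median was -0.01 in CKD saline against sham saline, 0.03 in CKD JV001 against sham JV001 and 0.06 in the interaction. The 13 beta-oxidation genes lay between -0.07 (Hadh) and 0.22 (Eci2), and Hadha had -0.01 ± 0.09 (SE). The genes set apart on this scale were Cd36 with 0.93 ± 0.39, Acot1 with 0.85 ± 0.37, Cpt1a with 0.77 ± 0.35 and Pnpla2 with 0.54 ± 0.23, with adjusted p of 0.146 each, beside the 0.85 of the median gene. With the CKD block on this scale, where 55.8% of all genes were called, the members called were Cd36 (0.85), Acot1 (0.77), Cpt1a (0.81), Pnpla2 (0.49) and Acot13 (0.26), all 5 higher and none lower, beside 0.81 for the median gene. For Acot1 the averaged CKD against sham difference became -0.36 with an adjusted p of 0.263, against a median of 0.62 for all genes.

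**Figure D5:**
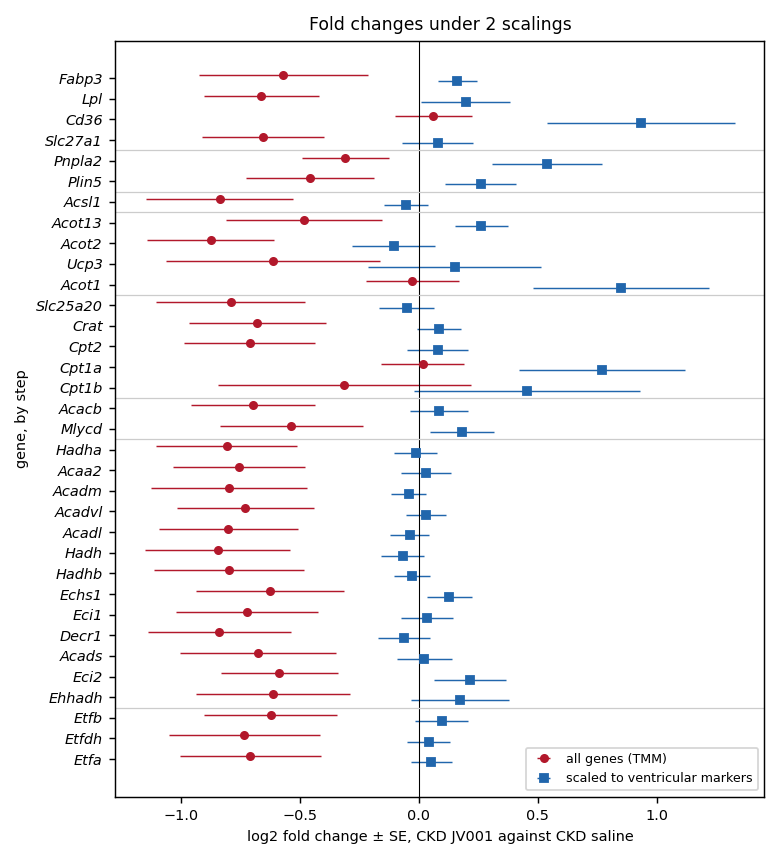
Log2 fold change with its SE (bars) of each gene in CKD JV001 against CKD saline, scaled by all genes (TMM, red circles) and by the 15 ventricular markers (blue squares). The median moves from -0.68 to 0.08, and Cd36, Acot1, Cpt1a and Pnpla2 lie farthest to the right on the second scale.

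Other genes of fatty acid metabolism were taken from 6 lists: regulators (19 tested), peroxisomal oxidation (16), other uptake and trafficking (12), other activation and carnitine supply (12), triglyceride synthesis and lipolysis (18) and other acyl-CoA and ketone metabolism (26). None passed in either direction in the 5 comparisons of the design, in which 0% to 0.02% of all genes did. With the CKD block 7, 9, 5, 4, 8 and 21 of them in that order were lower in CKD JV001 than in CKD saline, against 12.8% of all genes. In the same fit 0, 0, 0, 1, 1 and 0 were higher, for which no share of all genes is given here. Without the block the medians of the lists in CKD JV001 against CKD saline were -0.20, -0.51, 0.30, -0.34, -0.45 and -0.62 in that order, against -0.68 for the 34 genes. Ppara, the gene of PPARα, was at 86.2, 102 and 114 CPM in sham mice given saline and 108, 105 and 103 in those given JV001. Ppara in CKD mice was at 81.3, 87.7 and 43.3 CPM after saline and 41.9, 46.9 and 29.6 after JV001. In the averaged comparison of CKD with sham it had -0.96 ± 0.18 (adjusted p = 0.0463, edgeR), and Plin4, a droplet coat protein gene, had -0.76 ± 0.14 (adjusted p = 0.0496); they were the 2 genes of these lists that passed there, both lower (0.473% of all genes called). Ppargc1a, which encodes PGC-1α, had -1.79 ± 0.33 in CKD JV001 against sham JV001 with an adjusted p of 0.0650. Of the other genes named by the smallest p in each list, Lpin1, a PPARα coactivator, had -1.06, the mitochondrial acetyl-CoA synthetase Acss1 -1.18, the lipoprotein receptor Vldlr -1.06 and the branched-chain dehydrogenase Acadsb -0.87 in the same comparison, with adjusted p from 0.0906 to 0.106 (edgeR). Mmut, Pccb, Got2, Aldh9a1, Abcd3, Pecr and Fitm2 had -0.99 to -0.77 there, and Acsl6 and Slc27a4 had -0.98 and -0.42 against CKD saline. Cidec, a droplet gene that also marks adipocytes, had 0 to 31 reads a library in sham saline, 8 to 14 in sham JV001, 0 to 1 in CKD saline and 7 to 28 in CKD JV001, and no fold is given; adipocyte markers summed to 0.265 to 6.17 CPM over the 12 libraries.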

How the data were processed

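Polyadenylated RNA of isolated mouse cardiomyocytes was measured in 12 libraries. The authors deposited raw counts per gene symbol, made with fastp, HISAT2 and HTSeq on GRCm39, per the submitters' processing notes; versions, annotation, strand setting and the handling of reads shared by genes were not given in the sources used here. Deposited FPKM values are the authors' own, and in 100% of 10249 genes with enough reads they equal the counts divided by 1 gene length (relative tolerance 0.001). Columns headed S, SJ, C and CJ were read as sham saline, sham JV001, CKD saline and CKD JV001, with C taken from the design's name for that model.

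Counts were tested with edgeR 4.0.16 (R 4.3.3): TMM scaling, filterByExpr by group with a minimum count of 10 (15004 of 22584 genes, all 34 members included), 1 quasi-likelihood fit of 4 group means, and Benjamini-Hochberg adjustment over all genes tested at 0.05. CPM are scaled by the TMM library sizes, and log2 CPM has a prior count of 2. The procedure was also run on simulated counts, whose result is not given here. Those counts held no outlying library, shift in cell mix or block, so that run does not bear on these features of the data. The members, the lists and the rule for named genes were chosen with earlier results of these data known. The rule gives values in every library for the member with the highest FPKM and the one with the smallest p in CKD JV001 against CKD saline within each step, the member with the smallest p in each comparison, the pairs Cpt1a and Cpt1b and Acot1 and Acot2, any member past the threshold, and up to 3 genes a pathway list, of which 1 is not reported here. The comparison of CKD with sham averaged over both injections was added after seeing the data. The labels do not say that equal library numbers pair libraries. In CKD saline and CKD JV001 all 3 same-numbered pairs had correlated deviations from their group means (0.29 to 0.49, each over the limit of 0.1), and the number was added there as a block after seeing the data; in the other 5 pairs of groups at most 1 of 3 passed. Across numbers, libraries 1 and 2 of both CKD groups correlated as much (0.27 and 0.31). Over all groups, 18 of 36 differently numbered pairs passed the limit, against 6 of 18 same-numbered pairs, so the correlations do not show a pairing by number. Alternatives used other scalings, filters, DESeq2 1.42.0, limma 3.58.1, a replicate block, a marker covariate and omitted libraries. Overlaps between genes came from GENCODE M21 on GRCm38, and promoters from RefSeq.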

Additional observations from a re-analysis of the deposited data

How the results depend on the processing

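The 5 planned comparisons kept 0 called genes of the 34 under most settings. The share of all genes called is given above for some settings. Where it is not, here and in the blocked fits below, the counts alone do not set the 34 genes apart from all genes. In CKD JV001 against CKD saline, 24 were called with both CKD libraries numbered 3 left out and 29 by limma voom with quality weights, and 0 to 20 with 1 library left out in turn, the 20 without CKD saline library 3. In CKD JV001 against sham JV001, 15 were called by DESeq2, 1 by limma on log2(FPKM + 1), 2 with only the groups compared in the fit, 18 with both libraries numbered 3 left out and 24 by voom, and 0 to 11 with 1 library left out. In CKD saline against sham saline DESeq2 called 1, Acot1. The averaged CKD against sham comparison, with 1 call, had 0 when scaled to ventricular markers, 0 with CKD saline libraries 1 and 2 summed, 0 with the marker covariate, 2 with the stricter filter, 6 by DESeq2, 2 by limma with either pseudocount (1 or 0.1), 4 with both libraries numbered 3 left out, 20 by voom, and 0 to 1 with 1 library left out.

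Median log2 fold changes moved by more than the spread between libraries only under ventricular scaling, to 0.0815 in CKD JV001 against CKD saline, 0.0264 against sham JV001, 0.059 in the interaction and -0.0126 in the averaged comparison, and with the mean of the fibroblast, endothelial and macrophage markers as a covariate, to -0.0971, -0.199, 0.176 (sham JV001 against sham saline) and -0.0537 (averaged). The cause was not tested. With 1 library left out, the medians ranged -0.33 to 0.05 for CKD saline against sham saline, -0.90 to -0.41 in CKD JV001 against CKD saline, -0.21 to -0.01 in the sham groups, -0.99 to -0.51 in CKD JV001 against sham JV001, -0.84 to -0.35 in the interaction and -0.58 to -0.37 averaged.

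With the number as a replicate block within the CKD groups only, chosen after seeing the data, 27 genes were called in CKD JV001 against CKD saline, and 27 in the 6 CKD libraries alone. Leaving out the same-numbered CKD libraries in turn gave 0 to 22 blocked calls, the marker covariate 0, and ventricular scaling 5, with a blocked median of 0.0793; there Acot1, Acot13 and Pnpla2 turned from negative to 0.77, 0.262 and 0.491. With the number as a replicate block over all 4 groups, whose other pairs of groups did not deviate together, 0 genes were called in the 5 planned comparisons and 1 in the averaged one, with medians of -0.24, -0.70, -0.08, -0.87 and -0.62, and -0.57 averaged. Depth limits only Cpt1b (15 to 62 reads a library) and, to a lesser degree, Acot1 (92 to 325).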
